A study of Homo sapiens with 7 samples.

Results

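The 10 genes described here, which drive the cell cycle, were followed across the knockdown (KD) of the nuclear poly(A) polymerases: the D-type cyclins CCND1, CCND2 and CCND3, the E-type cyclins CCNE1 and CCNE2, cyclin A2 (CCNA2), the B-type cyclins CCNB1 and CCNB2, and the kinases CDK4 and CDK6. They were taken by gene symbol from 3 deposited tables of polyadenylation sites (PASs), sense strand only, and all 10 were listed in each table, among 16044 genes over the 3 tables. They carried 55 distinct PASs of 72453, of which 42 lay in 3′-most exons, 11 in introns and 2 in upstream exons. HEK293 cells, an established human embryonic kidney line, received either control siRNA (siCtrl) or siRNA to Star-PAP (siStarPAP, gene TUT1), PAPα (siPAPa, gene PAPOLA), PAPγ (siPAPg, gene PAPOLG) or PAPα and PAPγ together (siPAPag), with no other agent named in the labels. Total RNA was sequenced at its 3′ ends by 3′READS, in which each read that carries untemplated Ts from the poly(A) tail, a PAS-supporting (PASS) read, marks the end of 1 transcript. The 4 libraries of batch 1 and siPAPag are 1 library per condition, and batch 2 adds a siCtrl and a siStarPAP library made by 3′READS+, a variant of the protocol, so that only those conditions have 2 libraries. The siCtrl column beside siPAPag repeats batch 1, with 33941 of 34060 PASs listed in both tables identical, and was counted once, so every KD of batch 1 and siPAPag was set against the same siCtrl library. The labels do not give the batch of siPAPag, and the study's text can be read as placing it in another one, so for siPAPag batch and KD cannot be told apart. Nothing in the labels says that libraries of one condition came from separate cultures. The p-values of fits over several libraries then measure at most the spread between libraries. Those of the exact tests on read counts measure counting error only.

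Cyclins are the regulatory partners of the cyclin-dependent kinases (CDKs), and their stepwise rise and destruction orders the cell cycle. D-type cyclins with CDK4 or CDK6 start the phosphorylation of the retinoblastoma protein in G1, E-type cyclins with CDK2 carry the cell into S phase, cyclin A2 acts through S phase and G2, and B-type cyclins with CDK1 drive mitosis. The mRNA of CCND1 is known to end at alternative PASs, the shorter form lacking most of its 3′UTR.

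The sites whose use differed most are shown by the 30 bases that end at the cleavage position (hg19), read on the transcript strand, with the signals AATAAA and ATTAAA in capitals where the window holds them. For CCND1 (chr11:69455924-69469242, plus strand, NM_053056), both main sites lie in exon 5, in the 3′UTR, 328 and 3192 nt after the stop codon and 2864 nt apart. For CCND2 (chr12:4378937-4414519, plus strand, NM_001759) they lie in exon 5, 204 and 5344 nt after the stop codon. The CDK4 site lies in exon 8 (NM_000075, minus strand), 277 nt after the stop codon. The most distal CDK6 site lies in exon 8 (NM_001145306, minus strand), 10207 nt after the stop codon. Both are added because these kinases are described below. Exon and intron numbers and stop codon distances are those of the Ensembl canonical transcript, and the NM_ accessions are those deposited with the counts.
CCND1 proximal, chr11:69466349-69466378: accccaataatcaactcgtttttatattaa
CCND1 distal, chr11:69469213-69469242: aagtctagaAATAAAactggtaaaacccca
CCND2 proximal, chr12:4409350-4409379: atAATAAAaagcatttggtgcctatttgaa
CCND2 distal, chr12:4414490-4414519: atttggacAATAAActcaccttgacctaaa
CDK4, chr12:58142031-58142060: tccttttttatacaggaaaaacaaaacaaa
CDK6 distal, chr7:92234247-92234276: ctgtagtgagtaaaattcATTAAAttccaa
The proximal site of CCND1 had neither AATAAA nor ATTAAA in the 40 nt before it, whereas its distal site had AATAAA. Among the 37616 PASs of 3′-most exons in the batch 1 table, 46.3% had AATAAA in that window, 17.6% had ATTAAA and 37.9% had neither. The triplet ATA, which the study relates to Star-PAP, was counted between 100 and 41 nt before each site. It occurred 3 times before the proximal CCND1 site and 0 times before the distal one. Of the 3′-most exon PASs 59.5% had at least 1, and the median count was 1. The bare triplet was counted, whereas the study scored matches to a Star-PAP binding matrix and describes AUA within GC-rich sequence. Only the transcript strand was searched, and overlapping matches were counted.

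The table totals ran from 2347192 reads (siStarPAP, batch 2) to 16191098 (siPAPa), and all levels below are RPM, PASS reads scaled to the PASS read total of the library and not divided by length, with exact Poisson 95% intervals that cover counting error only. Of the targeted genes, TUT1 went from 7.26 RPM in siCtrl to 0.121 in siStarPAP of batch 1, but from 1.19 (6 reads) to 0.941 (4 reads) in batch 2. PAPOLA went from 6.21 to 0.478 RPM in siPAPa and was at 0.426 RPM in siPAPag against 6.83 beside it. PAPOLG had 5 reads in siCtrl (0.438 RPM) and 15 in the library labelled siPAPg (1.01 RPM), so its reads do not show a KD there, and in siPAPag it had 6 reads (0.319 RPM). In batch 2 the KD of Star-PAP likewise cannot be read from TUT1 at this depth. The study reports KD of the PAPs at the protein level by immunoblot, a measure that these few RNA reads do not replace. Summed markers of HEK293 (NEFM, NEFL, VIM, PAX2, KRT8, KRT18) lay between 891 and 4039 RPM with 5 or 6 of 6 detected. The 8 markers of leukocytes, hepatocytes, muscle and red cells summed to between 0.471 and 4.03 RPM with 1 or 2 detected. KRT18 made up most of the HEK293 sum in every library, with 2648 of 2841 RPM in siCtrl of batch 1. In that library NEFL (36.7 RPM) and VIM (152 RPM) lay above APOA1 (3.85 RPM), which is among the 8 other markers. NEFM (3.06 RPM), KRT8 (1.14 RPM) and PAX2 (8 reads) lay below it. PAX2 had 0 reads in siStarPAP of batch 1. The sum thus rests mainly on 1 gene and is weak evidence of cell identity.

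Of the 10 genes, 0 passed the test in siStarPAP and 1 (CDK4) had an unadjusted p below 0.05, where 2.29% of 11614 genes passed, 1.08% lower and 1.21% higher (edgeR's quasi-likelihood test over both batches with batch as a block, Benjamini-Hochberg adjusted p below 0.05). In siPAPa 2 of the 10 passed, CCND2 lower and CDK4 higher, against 5.9% of 12780 genes (2.54% lower, 3.36% higher). In the library labelled siPAPg 1 passed, CDK4, against 2.28% of genes (0.986% lower, 1.29% higher), and in siPAPag 1 passed, again CDK4, against 6.71% (3.3% lower, 3.4% higher). In bulk RNA, fewer cells in a phase of the cycle and less of an mRNA per cell cannot be told apart. The KDs with 1 library were tested in a fit of all 7 libraries, which assumes that a lone library varies like siCtrl and siStarPAP did between batches. Scaling by library totals alone moved the split of all calls from 125 lower and 141 higher to 158 and 33 in siStarPAP, from 324 and 430 to 489 and 295 in siPAPa, from 126 and 165 to 171 and 143 in siPAPg, and from 422 and 435 to 567 and 295 in siPAPag. DESeq2 gave 88 lower and 191 higher in siStarPAP.

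The plain ratios of RPM carry an offset, because the median over all genes was -0.49 on the log2 scale in siStarPAP, -0.19 in siStarPAP of batch 2, -0.34 in siPAPa, -0.37 in siPAPg and -0.44 in siPAPag. The medians of the 10 genes were -0.10, 0.22, -0.08, 0.10 and -0.65 in the same order. Counted against the median of all genes, 7, 7, 5, 7 and 4 of the 10 lay above it. TMM scaling in edgeR brings the median of all genes to near 0 (between -0.01 and 0.06), and fold changes from the test are on that scale. A drop past 2-fold in RPM with more than 50 reads over the pair of libraries was seen for 1 of 10 genes in siStarPAP (CCNE2), 2 of 10 in siPAPa (CCND2 and CCNE2), 1 of 10 in siPAPg (CCNE2), 3 of 9 in siPAPag (CCND1, CCND2 and CCNE2) and 1 of 8 in siStarPAP of batch 2 (CCNA2). Over all genes with enough reads such drops made up 26.2%, 22.1%, 20.7%, 26.5% and 11.7%. A rise past 2-fold was seen for CDK6 in siStarPAP (4.44% of all genes), for CDK4 in siPAPa (8.5%), siPAPg (5.67%) and siPAPag (6.98%), and for 0 genes of the 10 in batch 2 (3.55%). These counts compare single libraries and have no replicate check. With TMM factors in place of PASS totals the genes past 2-fold changed from 2637 lower and 448 higher to 1295 and 1173 in siStarPAP, from 831 and 253 to 589 and 426 in batch 2, from 2388 and 919 to 1492 and 1617 in siPAPa, from 2105 and 576 to 1118 and 1151 in siPAPg, and from 2656 and 700 to 1502 and 1478 in siPAPag. Of the 10 genes, with TMM factors CCND1 in siPAPag was no longer past 2-fold (-0.95), and CDK4 in siStarPAP (1.17) and CDK6 in siPAPa (1.02) and siPAPg (1.20) became rises past 2-fold.

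**Figure D1:**
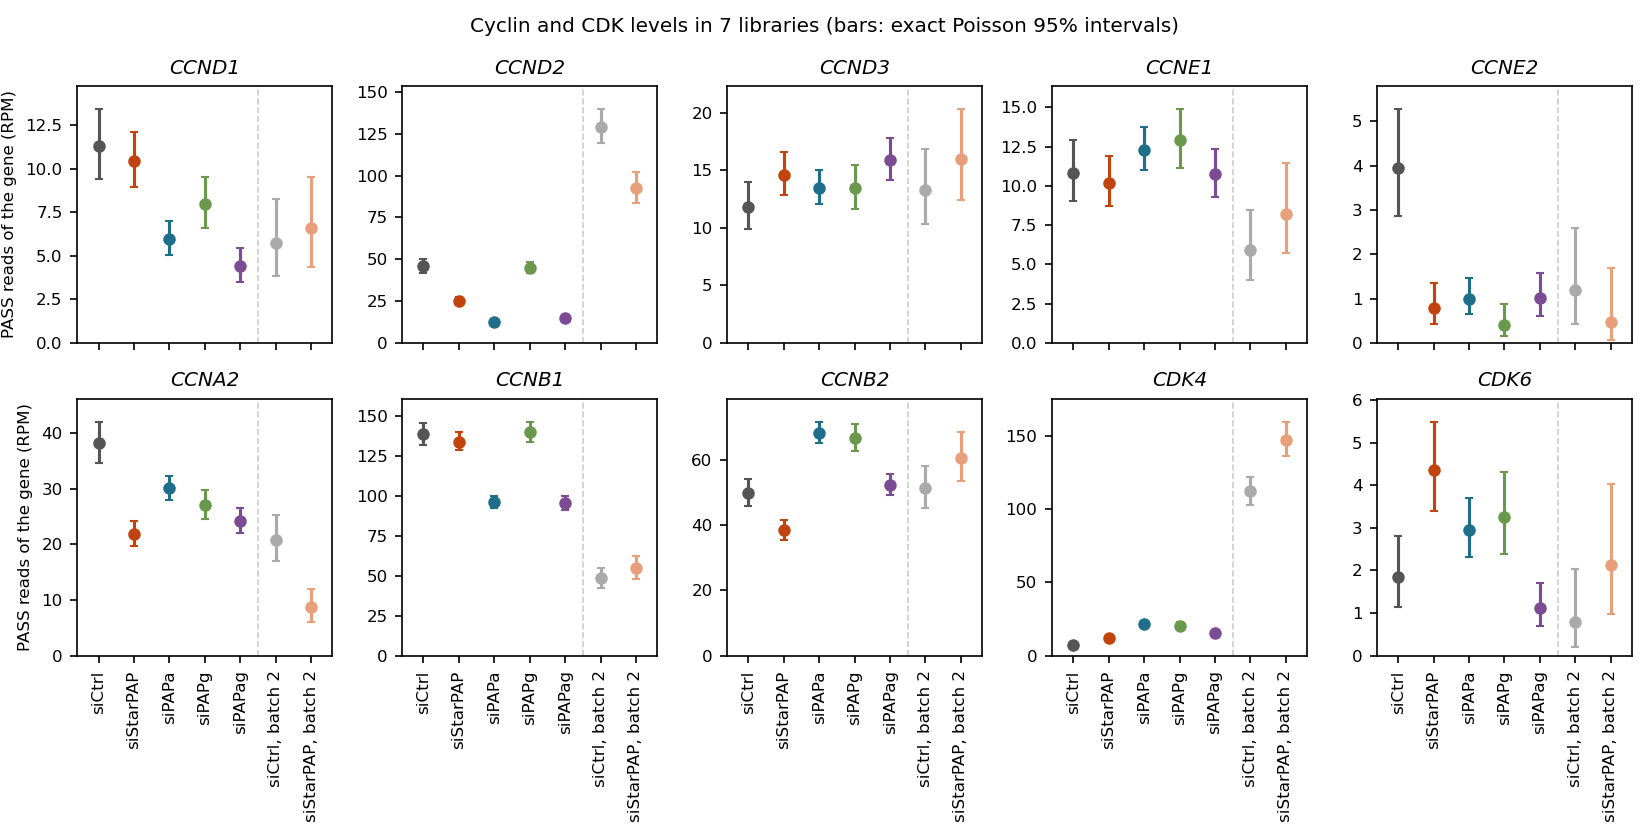
Level of each of the 10 genes (RPM, linear axis from 0, a scale of its own in each panel) in the 7 libraries, with exact Poisson 95% intervals as bars and a dashed line between batch 1 with siPAPag on the left and batch 2 on the right. CDK4 was at 112 and 147 RPM in batch 2 and at or below 21.6 RPM in the other 5 libraries, while CCND2 was lowest in siPAPa and siPAPag.

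CCND1, the D-type cyclin most often tied to growth signals, was at 11.3 RPM in siCtrl (129 reads, 95% interval 9.43 to 13.4), 10.5 in siStarPAP, 5.94 in siPAPa, 7.98 in siPAPg and 4.42 in siPAPag. In batch 2 it was at 5.74 RPM in siCtrl and 6.59 in siStarPAP, on 29 and 28 reads. The siPAPa and siPAPag libraries were the lowest of the 5 read against the batch 1 siCtrl, with log2 ratios of -0.93 (95% interval -1.28 to -0.58) and -1.38 (-1.79 to -0.97). On the edgeR scale the changes were -0.53 (SE 0.60, adjusted p = 0.747) and -0.82 (SE 0.62, adjusted p = 0.511), and neither passed the test. In siStarPAP the sign depended on the scaling, with an RPM ratio of -0.11 and an edgeR change of 0.40 (SE 0.45, adjusted p = 0.739).

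The site at which CCND1 mRNA ended also differed in batch 1 and siPAPag. The distal site had 66 reads in siCtrl against 41 at the proximal one (61.7% of the pair, Clopper-Pearson 95% interval 51.8 to 70.9), 21 against 120 in siStarPAP (14.9%, 9.46 to 21.9), 29 against 97 in siPAPa (23.0%, 15.99 to 31.4), 25 against 56 in siPAPg (30.9%, 21.1 to 42.1) and 14 against 38 in siPAPag (26.9%, 15.6 to 41.0). The interval of siCtrl did not overlap that of any of these 4 libraries. The relative expression difference (RED), the change in log2(distal/proximal), was -3.20 in siStarPAP (Fisher's exact test, two-sided, adjusted p = 6.67e-13), -2.43 in siPAPa (adjusted p = 1.89e-08), -1.85 in the library labelled siPAPg (adjusted p = 2.20e-04) and -2.13 in siPAPag (adjusted p = 1.86e-04). These tests compare the reads of 2 libraries, and all 4 share the same siCtrl, so a siCtrl library with an unusually high distal share cannot be told apart from a change in each KD. Calls of this kind were frequent: in either direction they made up 44% of 5569 genes in siStarPAP, 48.9% in siPAPa, 37.3% in siPAPg and 49.7% in siPAPag, and calls towards the proximal site 21.1%, 19.9%, 17.9% and 18.8%, and towards the distal site 22.9%, 29%, 19.4% and 30.9%. Of the 5 genes of the group with a testable pair, 4 were called in siStarPAP (2 towards each side), and 2 in siPAPa, 2 in siPAPg and 3 in siPAPag were called, all towards the proximal site.

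Split by site, the distal CCND1 isoform was at 5.78 RPM in siCtrl and at 1.27 in siStarPAP, 1.16 in siPAPa, 1.69 in siPAPg and 0.745 in siPAPag. The proximal isoform was at 3.59 RPM in siCtrl, 7.25 in siStarPAP, 3.87 in siPAPa, 3.79 in siPAPg and 2.02 in siPAPag. The distal isoform was thus lower in all 4 KD libraries, while the proximal one was highest in siStarPAP, in which the level of the whole gene was close to siCtrl. Minor sites between 856 and 2691 nt after the stop codon held 0 to 19 reads each. A site in intron 1 (chr11:69456419-69456448) had 4 reads in siCtrl, 5 in siStarPAP, 3 in siPAPa, 14 in siPAPg and 0 in siPAPag, and is not listed in batch 2.

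Batch 2 did not show the shift. There the distal CCND1 site had 15 reads against 8 in siCtrl (65.2%, 42.7 to 83.6) and 13 against 5 in siStarPAP (72.2%, 46.5 to 90.3), the latter under the minimum of 20 reads set for the test, with a RED of 0.47. The effect of siStarPAP differed between the batches (exact test of equal odds ratios, adjusted p = 0.011 over 2870 genes with at least 10 reads of the pair in each library, a test added after the values were seen), as it did for 16.8% of those genes. Protocol, depth and the TUT1 reads given above all differ between the batches and cannot be told apart. Over both batches, a test of PAS use relative to the gene (edgeR's diffSpliceDGE with batch as a block) gave log2 changes of -0.73 for the distal site (unadjusted p = 0.203) and 0.42 for the proximal site (unadjusted p = 0.448). That test called 0 of 9134 PASs, with 277 at an unadjusted p under 0.05, and called 3 when only identical positions were matched and 2 with at least 50 reads per PAS.

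**Figure D2:**
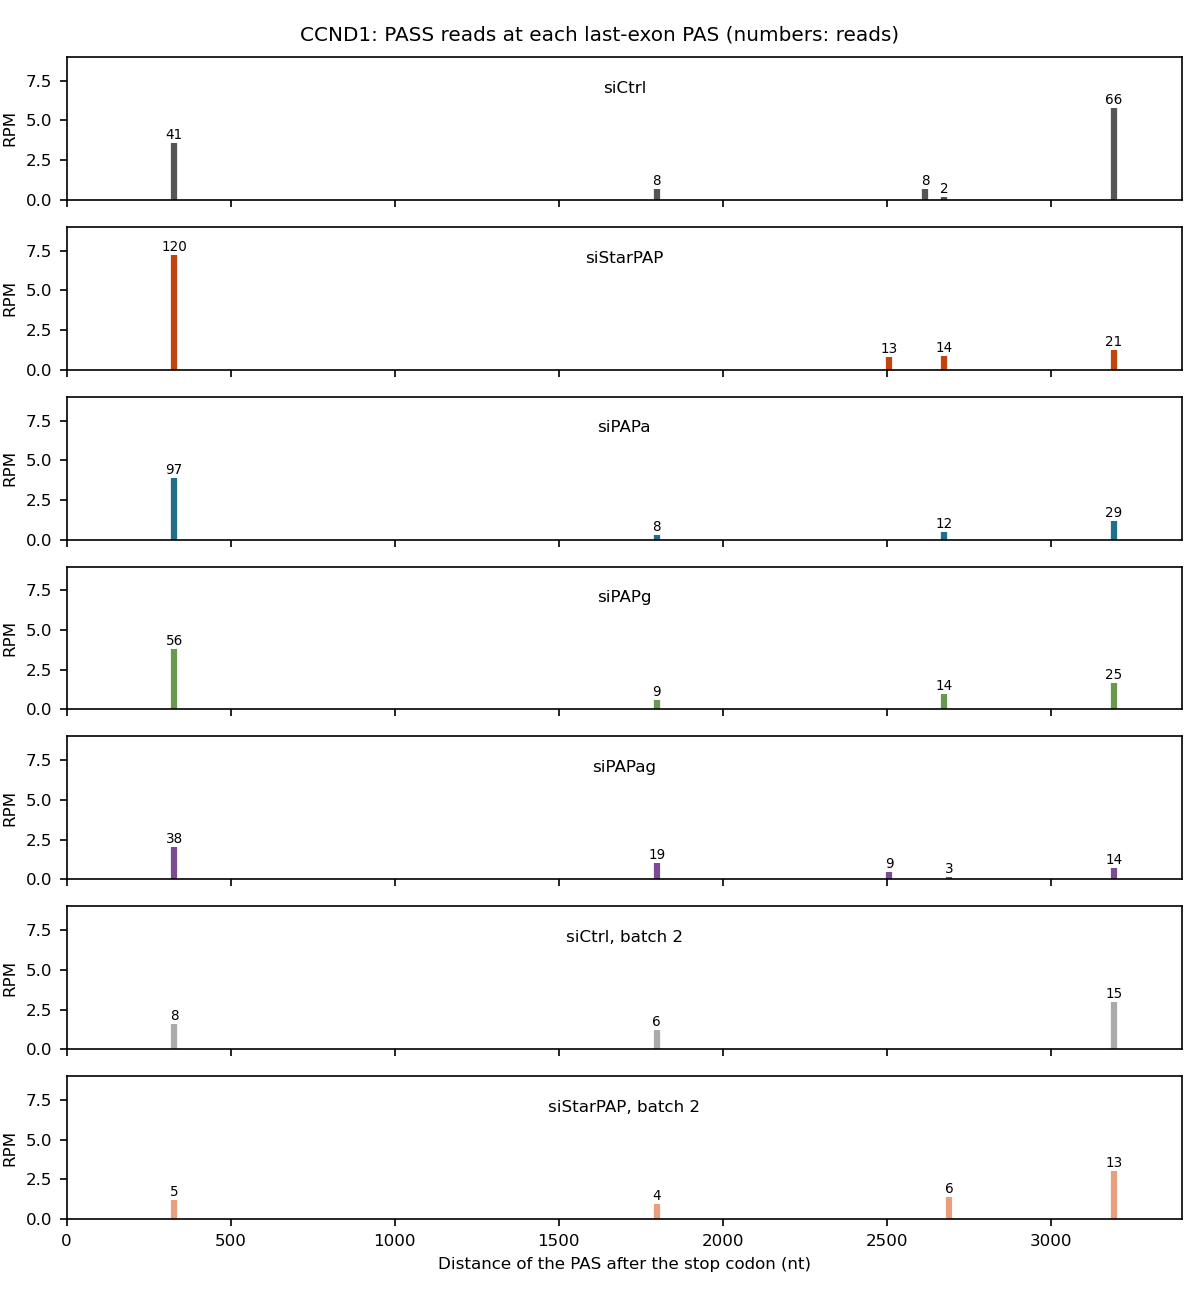
PASS reads of CCND1 at each 3′-most exon site, as RPM (vertical axis) against the distance of the site after the stop codon in nt (horizontal axis), 1 panel per library, with the read number above each bar. The proximal site at 328 nt was the highest in siStarPAP, siPAPa, siPAPg and siPAPag, and the distal site at 3192 nt was the highest in siCtrl and in both libraries of batch 2.

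The stretch that the proximal CCND1 isoform lacks was searched for the seed matches of miRNAs known to act on cyclins and CDKs, using mature sequences from RefSeq (GRCh38.p14) with the seed, bases 2 to 8, in capitals. Those with a match there are shown.
hsa-miR-15a-5p: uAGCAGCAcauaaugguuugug
hsa-miR-16-5p: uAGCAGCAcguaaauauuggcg
hsa-miR-17-5p: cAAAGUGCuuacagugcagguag
The match of the shared miR-15a and miR-16 seed, TGCTGCT, occurred 1 time in the 2864 nt between the CCND1 sites, 1 time in the 5140 nt between the CCND2 sites and 2 times in the last 6598 nt before the distal CDK6 site. The match of miR-17, GCACTTT, occurred 1 time in each of the 3 stretches, and none of them held that of let-7a. The match of miR-34a, CACTGCC, occurred 1 time in the CDK6 stretch, against 52.5% of genes with at least 1, and not in the other stretches. A stretch of the CCND1 length held at least 1 TGCTGCT in 33.8% of 1759 genes with a stretch that long, one of the CCND2 length in 47.5% and one of the CDK6 length in 56.9%. For GCACTTT the shares were 44.2%, 63.9% and 71.9%. miRNAs were not measured, and a match is a run of letters only.

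CCND2, which pairs with the same kinases as CCND1, was lower in siPAPa. Its level was 45.9 RPM in siCtrl, 24.8 in siStarPAP, 12.5 in siPAPa, 44.9 in siPAPg and 14.7 in siPAPag, while batch 2 had 129 RPM for siCtrl and 92.5 for siStarPAP. The libraries with PAPα knocked down were the lowest 2, and the library labelled siPAPg was within the counting interval of siCtrl (42.0 to 50.0). CCND2 fell by 1.46 on the log2 scale in siPAPa (SE 0.47, edgeR's quasi-likelihood test, adjusted p = 0.0401). In siPAPag the change was -1.08 (SE 0.46, adjusted p = 0.155), and in siStarPAP it was -0.34 (SE 0.32, adjusted p = 0.685), with RPM ratios of -0.89 and -0.48 in the 2 batches. The distal CCND2 site took 23.5% of 524 reads in siCtrl, 31.5% in siStarPAP (adjusted p = 0.0205, Fisher's exact test), 21.1% in siPAPa (adjusted p = 0.564), 24.4% in siPAPg (adjusted p = 0.860) and 6.88% in siPAPag (19 reads against 257, RED -2.05, adjusted p = 7.44e-09). The siPAPag share was the lowest of these 5 libraries. In batch 2 the same site took 2.01% in siCtrl and 2.43% in siStarPAP, on 12 and 9 reads, far below batch 1 in both conditions.

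CCND3, the third D-type cyclin, lay between 11.8 and 16.002 RPM in all 7 libraries. Its values were 11.8 in siCtrl, 14.6 in siStarPAP, 13.5 in siPAPa, 13.5 in siPAPg, 15.9 in siPAPag, and 13.3 and 16.002 in siCtrl and siStarPAP of batch 2. Each KD library was above the siCtrl of its table, by log2 RPM ratios of 0.19 to 0.42, and none passed the test (adjusted p from 0.359 to 0.838, edgeR). Its reads came from 1 site in the 3′-most exon, 988 nt after the stop codon, with AATAAA, and from a site that the tables type as intronic. The latter lies outside the Ensembl canonical transcript and was not placed against the transcript that the tables list. It held 8.15% of reads in siCtrl, 9.09% in siStarPAP, 1.78% in siPAPa, 2.51% in siPAPg and 3.69% in siPAPag.

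CCNE1, the main partner of CDK2 at the start of S phase, ended at 1 site in every library, in exon 12, 531 nt after the stop codon. It was at 10.9 RPM in siCtrl, 10.2 in siStarPAP, 12.3 in siPAPa, 12.9 in siPAPg and 10.7 in siPAPag, and at 5.94 and 8.24 in siCtrl and siStarPAP of batch 2. The counting intervals of the 5 libraries on the batch 1 siCtrl overlapped, and no KD passed the test (adjusted p from 0.625 to 0.725, edgeR). CCNE2, the other E-type cyclin, had 45 reads in siCtrl (3.94 RPM, 2.87 to 5.27) and 13, 25, 6 and 19 in siStarPAP, siPAPa, siPAPg and siPAPag (0.786, 0.997, 0.406 and 1.01 RPM). All 4 KD libraries were below the counting interval of siCtrl. Batch 2 had 6 CCNE2 reads in siCtrl and 2 in siStarPAP. No change of CCNE2 passed the test (edgeR log2 changes from -2.75 to -1.32, SE from 1.13 to 1.66, adjusted p from 0.559 to 0.710). In siCtrl of batch 1, 88.9% of the CCNE2 reads ended upstream of the 3′-most exon, mainly in introns 9 and 11. That share was 100% in siStarPAP, 88% in siPAPa, 83.3% in siPAPg and 100% in siPAPag. In batch 2 it was 33.3% in siCtrl, where 4 of 6 reads ended in the 3′-most exon, and 100% of 2 reads in siStarPAP.

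CCNA2, which pairs with CDK2 and then CDK1, was lower than siCtrl in every KD library by RPM. It was at 38.2 RPM in siCtrl, 21.8 in siStarPAP, 30.0 in siPAPa, 27.0 in siPAPg and 24.3 in siPAPag, and at 20.8 and 8.71 in siCtrl and siStarPAP of batch 2. The drop was widest for siStarPAP, with log2 RPM ratios of -0.81 (-1.01 to -0.60) and -1.26 (-1.84 to -0.70) in the 2 batches. Relative to the other genes the edgeR change in siStarPAP was -0.64 (SE 0.38, adjusted p = 0.442), and the other KDs lay between -0.13 and -0.30, so no drop passed the test. CCNA2 had 4 sites in its 3′-most exon in the batch 1 table, the outer pair 279 and 1194 nt after the stop codon (the proximal one placed at 265 nt in the other tables). The distal site took 63.3% of the pair in siCtrl, 75.0% in siStarPAP (RED 0.80, adjusted p = 0.00882, Fisher's exact test), 56.1% in siPAPa (adjusted p = 0.0833), 53.7% in siPAPg (adjusted p = 0.0561) and 71.8% in siPAPag (adjusted p = 0.0544). The batch 2 shares were 55.8% in siCtrl and 69.7% in siStarPAP (RED 0.86, adjusted p = 0.463, Fisher's exact test). The RED of siStarPAP was thus of like size in both batches. Batch 2 had only 23 distal and 10 proximal reads in siStarPAP and 43 and 34 in siCtrl. The exact test of equal odds ratios (adjusted p = 1) thus cannot decide whether the batches differ. By Fisher's exact test, 11.7% of 3691 genes were called in batch 2 (5.64% towards the proximal and 6.1% towards the distal site). Of the group 0 of 4 tested genes were called, also at an unadjusted p under 0.05. For CCND2 and CDK4 that test took other pairs of sites than in batch 1, 83 and 568 nt apart, so the batch 1 pairs were not retested.

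CCNB1, the cyclin of mitotic CDK1, was at 139 RPM in siCtrl, 134 in siStarPAP, 96.3 in siPAPa, 140 in siPAPg and 95.6 in siPAPag. Batch 2 gave 48.5 RPM for siCtrl and 54.8 for siStarPAP. The libraries with PAPα knocked down were lower than siCtrl beyond the counting intervals, with log2 RPM ratios of -0.52 (-0.62 to -0.43) and -0.60 (-0.69 to -0.50). The edgeR changes were -0.15 (SE 0.44) and -0.02 (SE 0.43), with adjusted p of 0.921 and 0.988. Its 2 main ends lie only 59 nt apart in exon 9, at 66 and 125 nt after the stop codon. The more distal one took 45.6% of the pair in siCtrl (43.2 to 48.1), 36.2% in siStarPAP (adjusted p = 7.78e-08, Fisher's exact test), 32.1% in siPAPa (adjusted p = 1.30e-16), 40.8% in siPAPg (adjusted p = 0.0119) and 35.9% in siPAPag (adjusted p = 7.77e-08). The differences from siCtrl lay between -13.5 and -4.86 percentage points. The batch 2 shares were 63.0% in siCtrl and 54.1% in siStarPAP (RED -0.53 against -0.56 in batch 1, adjusted p = 0.315). Counting the last site against all others, siPAPag was no longer called (adjusted p = 0.0770).

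CCNB2, the second B-type cyclin, ended at 1 site in every library, 168 nt after the stop codon. It was at 49.8 RPM in siCtrl, 38.4 in siStarPAP, 68.1 in siPAPa, 66.6 in siPAPg and 52.3 in siPAPag, and at 51.3 and 60.5 in batch 2. The siPAPa and siPAPg libraries were the highest, with edgeR changes of 0.92 (SE 0.43, adjusted p = 0.241) and 0.89 (SE 0.43, adjusted p = 0.375). In siStarPAP the RPM ratios had opposite signs in the batches, -0.38 and 0.24, and the edgeR change was 0.28 (SE 0.33, adjusted p = 0.754), or -0.060 with library totals alone.

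CDK4, the main G1 kinase of D-type cyclins, was higher in each KD library than in its siCtrl. It had 84 reads in siCtrl (7.35 RPM, 5.86 to 9.10) and was at 11.8 RPM in siStarPAP, 21.6 in siPAPa, 20.3 in siPAPg and 15.4 in siPAPag. All 4 were above the counting interval of siCtrl. In batch 2 it was at 112 RPM in siCtrl (103 to 122) and 147 in siStarPAP (136 to 159), so that the siCtrl libraries of the 2 batches differed far more than any KD did from its siCtrl. CDK4 rose in siPAPa (log2 change 1.77, SE 0.46, adjusted p = 0.00759, edgeR), in the library labelled siPAPg (1.68, SE 0.46, adjusted p = 0.0275) and in siPAPag (1.42, SE 0.46, adjusted p = 0.0427). In siStarPAP the change was 0.87 (SE 0.34, adjusted p = 0.211), with the RPM ratio positive in both batches (0.69 and 0.39). The 3 calls share 1 siCtrl library, and without the batch block the changes were -1.31, -1.39 and -1.65 (adjusted p = 1.00, 1 and 0.998), where the batch 2 siCtrl also counts as control. In siPAPag the call was also lost with DESeq2 (adjusted p = 0.0665), with library totals alone (adjusted p = 0.0889) and with the siCtrl column of its own table (adjusted p = 0.0503).

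The reads of CDK4 came from several sites. The site shown above held 65 reads in siCtrl (5.69 RPM) and 16.6 RPM in siPAPa, 15.0 in siPAPg and 6.71 in siStarPAP. The last site, 308 nt past the annotated gene end, had 19 reads in siCtrl, 57 in siStarPAP, 69 in siPAPa, 38 in siPAPg and 53 in siPAPag. A site 51 nt past the gene end had 0 reads in siCtrl and 17, 36, 28 and 11 in the same KD libraries. The share of the last site in its pair with the main one was 22.6% in siCtrl, 33.9% in siStarPAP, 14.2% in siPAPa, 14.6% in siPAPg and 19.6% in siPAPag, and no difference passed Fisher's exact test (adjusted p from 0.124 to 0.633). In batch 2 the main site, there placed at 58142027, took 566 of 566 reads in siCtrl and 623 of 626 in siStarPAP. The last site is not listed in the batch 2 table. None of the 5 listed CDK4 positions had AATAAA or ATTAAA in the 40 nt before it.

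CDK6, which shares the D-type cyclins with CDK4, was among the lowest of the group in reads. It had 21 reads in siCtrl (1.84 RPM, 1.14 to 2.81), 72 in siStarPAP (4.35 RPM, 3.40 to 5.48), 74 in siPAPa (2.95 RPM), 48 in siPAPg (3.24 RPM) and 21 in siPAPag (1.12 RPM). Only 4 and 9 reads were found in siCtrl and siStarPAP of batch 2. The siStarPAP change was the largest increase of the group in that comparison, at 1.69 (SE 0.87, adjusted p = 0.374, edgeR), and did not pass the test. Its ends were spread differently over the gene: 17 of 21 siCtrl reads (81.0%) ended upstream of the 3′-most exon, 15 of them at a site in intron 4, against 12.5% in siStarPAP, 33.8% in siPAPa, 60.4% in siPAPg and 42.9% in siPAPag. The most distal site, 10207 nt after the stop codon, had 1 read in siCtrl, 35 in siStarPAP, 37 in siPAPa, 14 in siPAPg and 12 in siPAPag. It was thus seen mostly in the KD libraries. The pair of sites had too few reads in siCtrl for the test. In batch 2 the nearest listed site, 10128 nt after the stop codon, had 0 reads in siCtrl and 3 in siStarPAP.

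**Figure D3:**
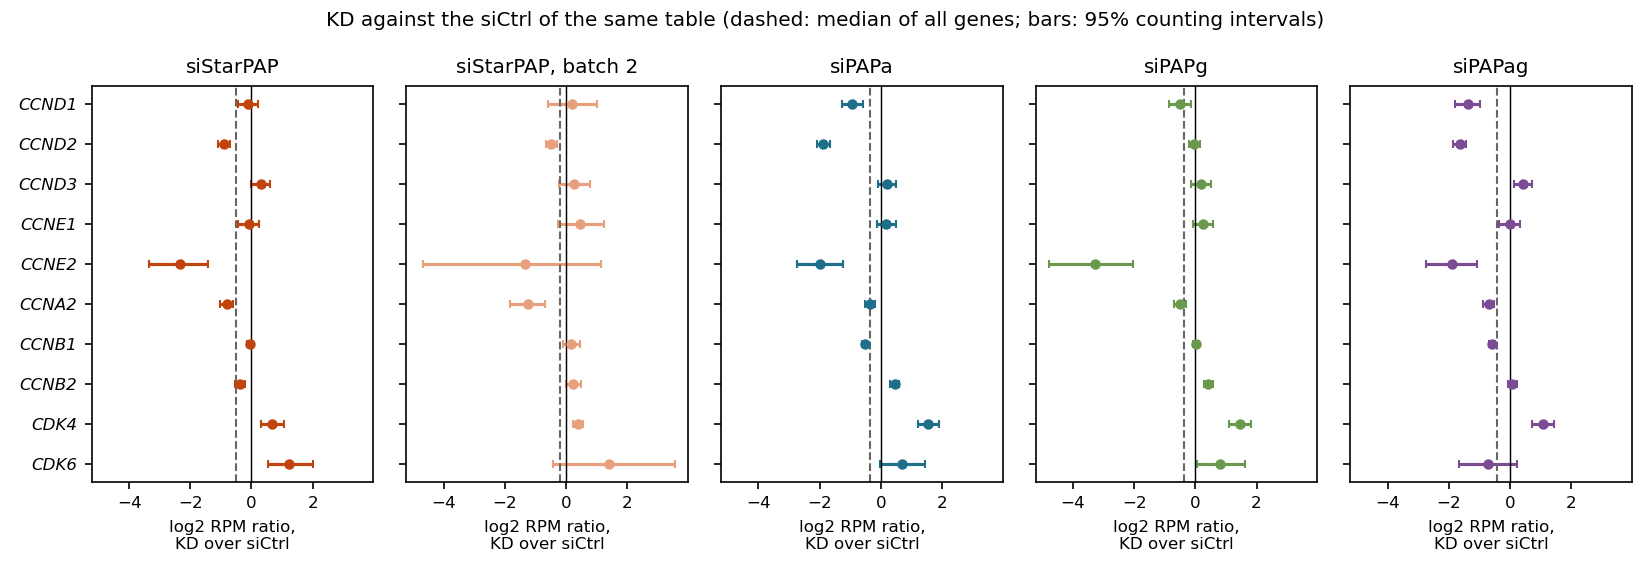
Log2 ratio of RPM, KD over the siCtrl of the same table (horizontal axis), for each of the 10 genes (vertical axis) in the 5 comparisons, with 95% counting intervals as bars, a solid line at 0 and a dashed line at the median of all genes. CDK4 and CCND3 lie to the right of 0 in all 5 panels and CCND2, CCNA2 and CCNE2 to the left, and the 4 panels other than batch 2 share 1 siCtrl library.

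**Figure D4:**
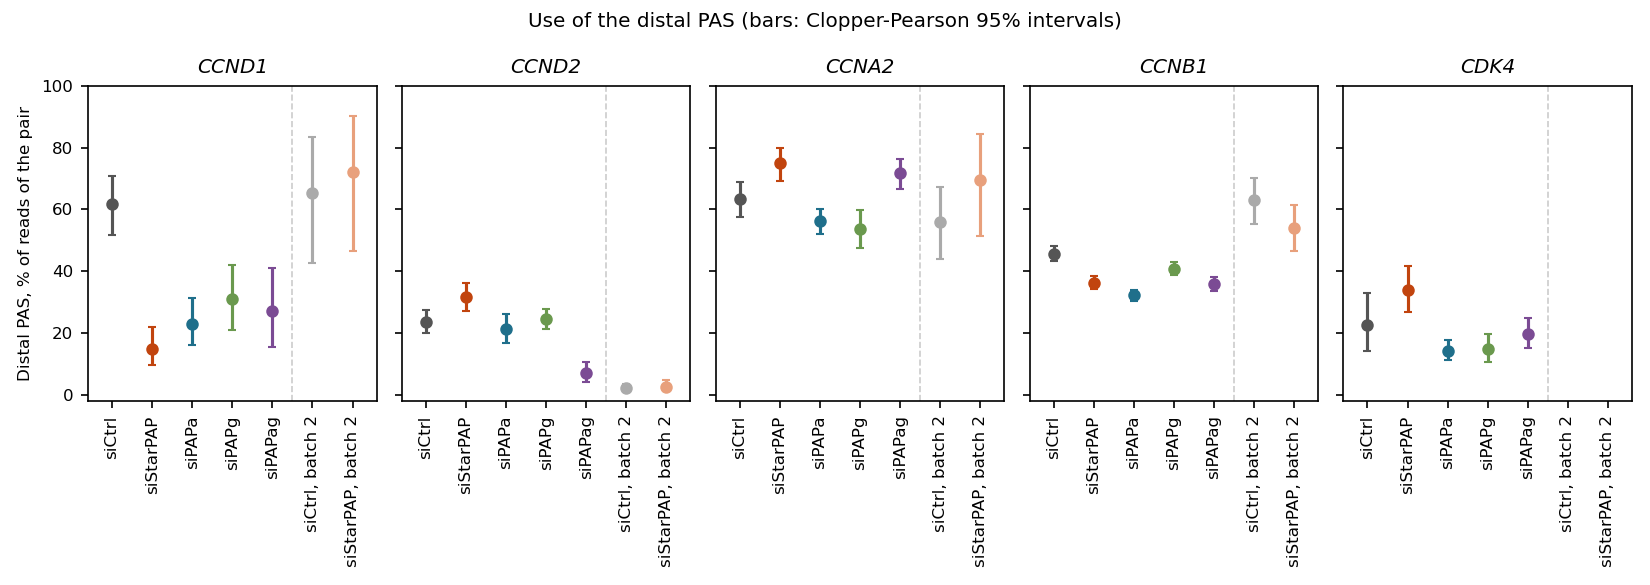
Share of the distal PAS in the reads of the proximal and distal pair (vertical axis, percent) in the 7 libraries, with Clopper-Pearson 95% intervals as bars, for the 5 genes with a testable pair, taken from the batch 1 table. The distal CDK4 site is not listed in batch 2, so no point is drawn there. The 4 KD libraries of CCND1 set against batch 1 siCtrl lie between 14.9% and 30.9%, below siCtrl at 61.7%, while the batch 2 libraries lie at 65.2% and 72.2%.

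Around these genes, 67 further genes of the cell cycle machinery were followed in 6 lists, of which 61 were tested in siStarPAP and 65 in the other KDs. By edgeR, 0 of the 61 passed in siStarPAP, where 2.29% of all genes tested did, and 8 of the 61 (13.1%) had an unadjusted p under 0.05 against 15.1% of all genes. In siPAPa 3 of 65 (4.62%) passed against 5.9% of all genes: CCNF, a ubiquitin ligase subunit, was lower (log2 change -1.64, SE 0.54, adjusted p = 0.0488), and CDK2, the kinase of CCNE1 and CCNA2 (1.47, SE 0.45, adjusted p = 0.0303), and WEE1, the kinase that inhibits CDK1 (2.08, SE 0.50, adjusted p = 0.00289), were higher. In the library labelled siPAPg 0 of 65 passed by edgeR against 2.28% of all genes, with 10 (15.4%) at an unadjusted p under 0.05 against 12.2%. In siPAPag 3 of 65 (4.62%) passed against 6.71% of all genes, the checkpoint kinase BUB1 lower (-1.71, SE 0.54, adjusted p = 0.0346) and CCNK, the partner of CDK12 and CDK13 (1.398, SE 0.47, adjusted p = 0.0478), and WEE1 (1.54, SE 0.50, adjusted p = 0.0401) higher. With DESeq2 the calls of CCNF (adjusted p = 0.0898), CDK2 (0.0655), BUB1 (0.0768), CCNK (0.0920) and WEE1 in siPAPag (0.103) were lost, and WEE1 in siPAPa kept its call. With the siCtrl column of the siPAPag table all 3 calls of siPAPag were lost (BUB1 at -0.85, adjusted p = 0.474, CCNK 0.0720, WEE1 0.0585). With library totals those of CCNK (0.109), WEE1 in siPAPag (0.0958) and CDK2 in siPAPa (0.0627) were lost, and that of CCNK also without the library labelled siPAPg (0.0502).

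By list, no tested gene among the 8 CDK inhibitors, the 13 genes of the RB and E2F family or the 11 genes of cyclin destruction passed the edgeR test in these 4 comparisons. At an unadjusted p under 0.05 there were 0 to 3 per list and comparison. Of all genes, 15.1% in siStarPAP, 17.4% in siPAPa, 12.2% in siPAPg and 19.3% in siPAPag were under it. The 3 were among the 8 CDK inhibitors in siStarPAP and went both ways, with log2 changes of 1.21 (SE 0.36), -0.98 (SE 0.41) and -7.88 (SE 2.09). The median log2 change of the CDK inhibitors was -0.69 in siStarPAP, -0.40 in siPAPa, -0.06 in siPAPg and -0.42 in siPAPag, beside medians of -0.01, 0.06, 0.01 and 0.03 over all genes. That of the 11 mitotic kinases and proliferation markers was 0.38, 0.67, 0.58 and 0.56 in the same order, with 1 of 11, BUB1, called. CDK2 reached 52.5 RPM in siCtrl and 103, 140, 110 and 113 in siStarPAP, siPAPa, siPAPg and siPAPag, above siCtrl in each, but 46.5 and 48.2 RPM in siCtrl and siStarPAP of batch 2. WEE1 was at 6.04 RPM in siCtrl, 9.91 in siStarPAP, 20.3 in siPAPa, 9.67 in siPAPg and 12.7 in siPAPag, and at 23.2 and 40.9 in batch 2, higher in every KD library than in the siCtrl beside it.

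The genes whose log2 RPM followed a member most closely over the 7 libraries were sought among 3765 genes, each with 50 reads or more per library. They are a description only, because libraries of a batch share protocol and depth. For CCND1 they were TMEM163 (Pearson r 0.966), ERO1L (0.956) and PPP1R14C (0.955). For CCNE1 they were CLN3 (0.979), RCC1 (0.960) and WHSC1L1 (0.951), for CCNB1 CRNDE (0.990), COPZ1 (0.990) and MYL6 (0.988), and for CDK6 FZD3 (0.895), GTF3C6 (0.892) and POLR3C (0.890). The floor of 50 reads did not apply to the members themselves. In siCtrl and siStarPAP of batch 2, CDK6 had 4 and 9 reads, CCND1 29 and 28, and CCNE1 30 and 35. Their r values rest in part on these low counts.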

How the data were processed

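Per the file headers and the study's methods, the authors aligned reads with bowtie2 (genome hg19), required a MAPQ above 10 and at least 2 untemplated Ts, clustered ends within 24 nt and deposited, in 3 tables, raw counts of PASS reads per PAS. The methods state a filter of at least 2 reads and over 5% of a gene's transcripts in at least 1 sample. Within the tables, 99.3%, 96.7% and 99.5% of sense rows (batch 1, batch 2, siPAPag) had at least 2 reads in a library, and 98.2%, 87.7% and 82.1% were over 5% of their gene's reads in one. Clustering was done per table, so positions differ by a few nt between tables. The deposited counts were summed over sense PASs per gene, and RPM used the study's PASS read totals. The members and lists were chosen with earlier results of these data known.

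Gene levels were tested with edgeR 4.0.16 (quasi-likelihood, TMM, filterByExpr, R 4.3.3) with batch as a block, over 4 libraries for siStarPAP and 7 for the other KDs, with 1 residual degree of freedom. The prior degrees of freedom, from spread shared over genes, were 20.1 with 4 libraries and 140 with 7. The p-values thus rest mostly on that shared spread. Genes not listed in every table of a fit were left out. Batch comes from the labels. These do not give it for siPAPag, which was put with batch 1 because its table repeats that siCtrl library. The deviations of same-batch libraries from their condition means correlated at 0.900 over 8093 genes. 3′UTR APA was tested with Fisher's exact test (SciPy 1.17.1) on the 2 most used 3′-most exon PASs with at least 20 reads per library. These PASs were chosen separately for batch 1, batch 2 and siPAPag. PAS use over both batches was tested with diffSpliceDGE. DESeq2 1.42.0 was an alternative. All p-values were adjusted by Benjamini-Hochberg over all features. Scripts were tested on simulated data.

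Named were the 10 genes, the knocked-down genes, list genes that passed edgeR (up to 3 per list and direction) and, for CCND1, CCNE1, CCNB1 and CDK6, the 3 genes of highest r. Table reads were 54.5% to 70.5% of PASS reads, and low-count values are limited by depth.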

Additional observations from a re-analysis of the deposited data

Results flagged for a closer look

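An upstream antisense PAS of CCND1, on the minus strand 5′ of the gene and outside the sense comparisons, was seen above the control: it had 5 reads in the library labelled siPAPg and 8 in siPAPag, against 0 in siCtrl of batch 1, siStarPAP and siPAPa. In batch 2 the same site had 5 reads in siCtrl and 1 in siStarPAP, so it was not limited to KD libraries.

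The shift of CCND1 towards its proximal site in siStarPAP differed between the batches, with a RED of -3.20 in batch 1 and 0.47 in batch 2 (exact test of equal odds ratios, adjusted p = 0.011). The batch 2 value rests on 15 distal and 8 proximal reads in siCtrl and 13 and 5 in siStarPAP.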

How the results depend on the processing

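Reads per gene, 1 library per KD and 1 residual degree of freedom limit these results. Without the batch block (that is, without pairing by batch) edgeR called 0 genes in siStarPAP, 0 in siPAPa, 0 in siPAPg and 0 in siPAPag, with 62, 103, 55 and 167 at an unadjusted p under 0.05, and these log2 changes turned sign: CCNA2 0.33, CCNB1 0.37 and CDK4 -1.31 in siPAPa, CCND1 0.21, CCND2 -0.75, CCNA2 0.18, CDK4 -1.39 and WEE1 -0.39 in siPAPg, and CCNA2 0.16, CCNB1 0.50, CDK4 -1.65 and CDK6 0.19 in siPAPag. Genes called in siStarPAP were 473 with no filter on low counts and 425 in the fit of all 7 libraries, and DESeq2 called 461 in siPAPa, 193 in siPAPg and 543 in siPAPag. With library totals CCNB2 in siStarPAP was at -0.060. Without the library labelled siPAPg, added after seeing the data, 730 genes in siPAPa and 828 in siPAPag were called. Leaving out siPAPa, siPAPg or siPAPag leaves that KD with no library, and leaving out a siCtrl or siStarPAP library leaves no residual degrees of freedom.

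Genes past 2-fold with more than 200 reads, with no filter and at 1.4-fold were 1602, 4823 and 6113 in siStarPAP, 347, 3365 and 3271 in its batch 2, 1485, 4456 and 5777 in siPAPg and 1877, 5081 and 6262 in siPAPag, and in siPAPa 1989 with more than 200 reads and 6564 at 1.4-fold. With at least 100 reads of the pair, 3′UTR APA was called for 1417, 266, 1826, 1371 and 1753 genes in siStarPAP, its batch 2, siPAPa, siPAPg and siPAPag. For CCND2 in batch 2 the 2 most used sites lay 83 nt apart, and the difference in distal share was -2.75 percentage points. With the site 5344 nt after the stop codon as the distal one it was 0.422 (first against last PAS) and 0.452 (last against all others). There the sign goes with the choice of pair. Differences in distal share also turned sign, in percentage points, for CCNA2 in siPAPa (0.911, last against all others) and for CCND2 in siPAPa (0.245, thinned reads). The median log2 RPM ratio of the 10 genes was 0.38 with TMM and 0.37 with DESeq2 size factors in siStarPAP, 0.25 and 0.23 in siPAPa, 0.48 and 0.46 in siPAPg, and -0.22 and -0.21 in siPAPag. With table totals it was 0.37 in siPAPg and -0.38 in siPAPag, where 3′-most exon PASs alone gave -0.30. PAS use over both batches was called for 3 PASs at identical positions and 2 with at least 50 reads. The causes were not tested.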
